A study of Mus musculus with 18 samples.

Results

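Dorsal root ganglia (DRG) of mice that lack the sodium channel Nav1.7 were compared with DRG of their littermates on 3 arrays per group, 6 of the 18 arrays of the series. The 3 knockout (KO) arrays carry the genotype label Nav1.7 KO and the 3 littermate arrays the label Wild Type. Members were the 17514 autosomal genes other than Penk and Ceacam10, out of 18193 genes tested. The 618 genes on X, 9 on Y and 50 on the mitochondrial genome or without a position stayed in the model and were not counted. Ganglia of all spinal levels were taken, and the mice of the study were of both sexes and 8 to 12 weeks old. Nav1.7 was removed by crossing mice with floxed Scn9a, its gene, to mice that express Cre recombinase under Advillin (Avil), a gene of sensory neurons. The Nav1.8 and Nav1.9 lines are global knockouts without this Cre, so in the Nav1.7 line the loss of the channel, Cre and any change at the Avil locus come together and cannot be told apart. Whether the littermates carried Cre or floxed alleles, is not stated. Nor is it stated that an array holds the RNA of 1 animal. The p-values therefore speak of the spread among arrays, pooled within groups over all 18, which may in part be technical.

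Nav1.7 is the voltage-gated sodium channel that amplifies small depolarizations in nociceptors and sympathetic neurons, and people who lack it are insensitive to pain. DRG hold cell bodies of somatosensory neurons. Peptidergic nociceptors release substance P and related peptides, non-peptidergic nociceptors depend on Ret signalling and the transcription factor Runx1, unmyelinated C-fibre low-threshold mechanoreceptors (C-LTMRs) respond to gentle touch, and large myelinated neurons serve touch and position sense. Satellite glia, Schwann cells, macrophages and vessels surround them.

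Values are log2 intensities, so a difference of 1 is a 2-fold change. Defining markers of sensory neurons were bright on all 6 arrays: Prph, a neuronal intermediate filament, lay between 13.66 and 13.72, and Scn11a, the gene of Nav1.9, between 12.94 and 13.36. Replicates correlated at 0.996 to 0.997 over all probe sets. KO replicate 2 was the only array of the line with low Xist, which is transcribed from the inactive X chromosome of females, at 5.30 against 11.97 to 12.34 on the other 5, and its Y-linked Eif2s3y stood at 9.41 against 3.91 to 4.86. Skeletal muscle markers (10 genes) averaged 9.72 on KO replicate 1 and between 6.74 and 8.45 on the other 5 arrays.

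Scn9a, the targeted gene, gave 12.31, 12.19 and 12.24 on the brightest probe set of the KO arrays and 12.35, 12.34 and 12.24 on the littermate arrays. The groups overlapped, and none of its 5 probe sets passed (log2 fold changes from -0.36 to -0.05). Which of these probe sets lie in the deleted exons is not given in the sources used here, so Scn9a does not check the labels. Avil, which encodes an actin-bundling protein and drives Cre in this line, gave 12.21, 12.23 and 12.21 in KO and 12.80, 12.94 and 12.84 in littermates. Every KO array lay below every littermate array, and its log2 fold change was -0.64 ± 0.0405 (SE, adjusted p = 8.03e-08 by limma). The same value was -0.02 in the Nav1.8 line and -0.06 in the Nav1.9 line. Of 122 autosomal genes within 10 Mb of Scn9a, 2 rose and 1 fell (2.46%), and of 140 within 10 Mb of Avil, 3 rose and 3 fell (4.29%), beside 4.35% of all autosomal genes. The neighbours that passed were Osbpl6, Pde11a and Hoxd9 around Scn9a, and Timeless, Kif5a, Myo1a, Slc16a7, Tespa1 and Irak3 around Avil.

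Across the autosomes 761 genes passed an adjusted p of 0.05 (4.35%), of which 318 rose (1.82%) and 443 fell (2.53%). The changes were mostly small. The median fold was 1.24 for genes that rose and 1.25 for genes that fell, and the log2 fold change of the median autosomal gene was 0.008. Larger changes were mostly decreases: 82 genes fell and 27 rose by more than 1.5-fold, and 23 fell and 2 rose by more than 2-fold. KO and littermate arrays did not overlap for 311 of the genes that rose and 438 of those that fell, beside 20.4% of all autosomal genes. Of the 761 genes, 12 that rose and 18 that fell had no array above 5.61, the 95th percentile of odorant receptor probe sets, which are dim here. In every leave-one-out fit 110 of the genes that rose and 232 of those that fell passed. Of the genes named by rule, Hoxd9, Bves and Slc16a7 did not pass without KO replicate 1 or without KO replicate 2 (adjusted p = 0.0507 to 0.0928). Without KO replicate 2, Hoxc10, Il4ra, Ptpre, Mllt3, Tespa1 and Irak3 did not pass either (adjusted p = 0.0729 to 0.166). Other calls lost without these arrays are given beside their lists. With the 6 arrays fitted alone, 88 genes rose and 185 fell.

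The largest decreases were seen in genes of varied function. Gm16364, a predicted gene, gave 5.92, 5.98 and 5.94 in KO and 8.97, 8.86 and 8.91 in littermates, a 7.82-fold decrease (adjusted p = 1.81e-12). Hal, which encodes histidine ammonia lyase, the enzyme that turns histidine into urocanate, gave 4.80, 4.97 and 4.96 in KO and 7.26, 7.29 and 7.41 in littermates. All KO values of Hal lay under the odorant receptor level and all littermate values above it, and it fell 5.32-fold (adjusted p = 1.32e-08). S100a7l2, a gene of the S100 family of calcium-binding proteins, spread more, with 5.52, 4.87 and 5.16 in KO and 7.89, 8.18 and 7.15 in littermates. It fell 5.89-fold (adjusted p = 0.000253), and its groups did not overlap. As for Hal, the KO values of S100a7l2, Lrrc31 and Bnc1 all lay under the odorant receptor level, so their folds are against values that may be background. Wfdc2, a secreted protease inhibitor-like protein, and Lrrc31, a leucine-rich repeat protein, fell 4.42-fold and 4.38-fold. Bnc1, a zinc finger protein of epithelia, fell 3.30-fold, Lypd6b, a Ly6 family protein, 2.98-fold and Adamts3, a secreted metalloprotease, 2.98-fold.

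Signalling genes stood among the same large decreases. Rgs8, which speeds up GTP hydrolysis by G protein alpha subunits, gave 6.73, 6.42 and 6.58 in KO and 8.70, 8.74 and 8.54 in littermates. The groups were about 2 units apart, and Rgs8 fell 4.25-fold (log2 fold change -2.09 ± 0.0679, SE; adjusted p = 1.73e-11). Htr4, a Gs-coupled serotonin receptor, gave 6.99, 7.12 and 7.30 in KO and 8.48, 8.53 and 8.66 in littermates and fell 2.68-fold (adjusted p = 1.52e-07). Rasgrp1, a Ras exchange factor that binds calcium and diacylglycerol, was a bright gene, with 10.41, 10.18 and 10.65 in KO and 11.92, 11.79 and 11.57 in littermates. It fell 2.55-fold (adjusted p = 3.3e-07), with no overlap.

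**Figure D1:**
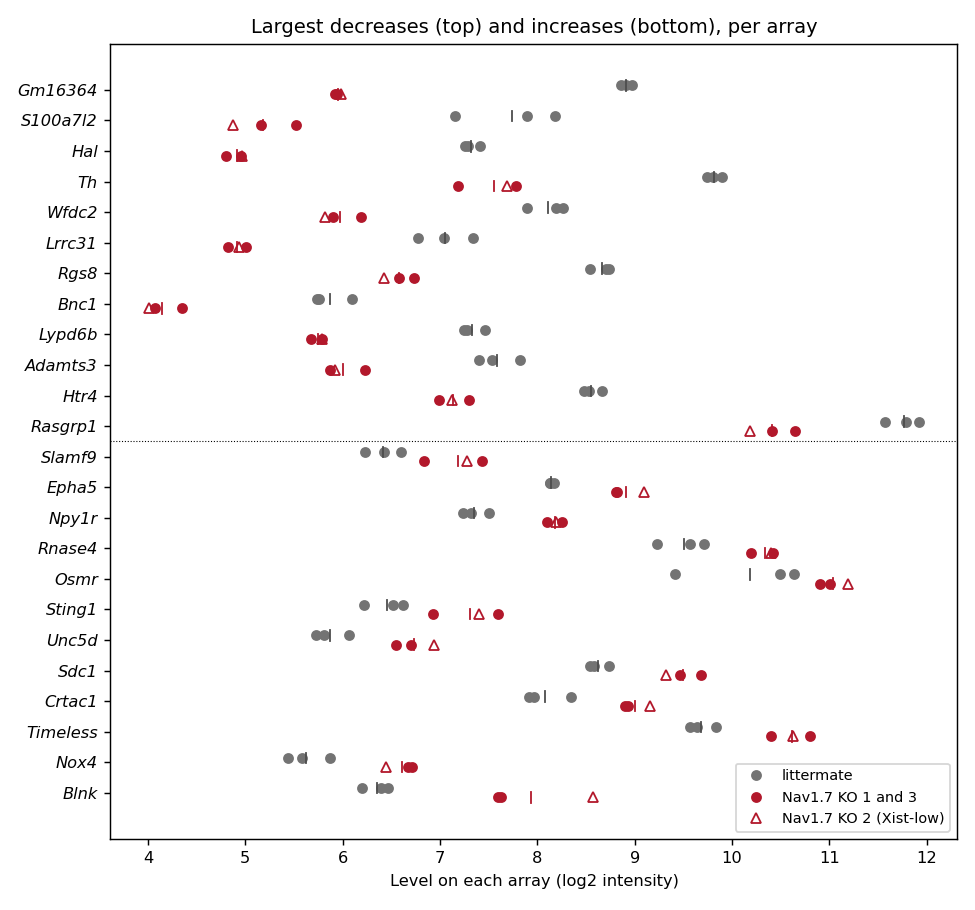
Levels of the 12 largest decreases and 12 largest increases whose arrays did not overlap, in log2 intensity on the horizontal axis, 1 point per array, with vertical ticks at the group means (grey, littermates; red, Nav1.7 KO; triangle, KO replicate 2). Decreases reached 7.82-fold for Gm16364 and increases 2.98-fold for Blnk, whose KO replicate 2 stood apart at 8.57.

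Increases were smaller. Blnk, an adaptor that couples the B cell receptor to phospholipase C, gave 7.60, 8.57 and 7.63 in KO and 6.47, 6.20 and 6.39 in littermates. All KO arrays were above all littermate arrays, and Blnk rose 2.98-fold (adjusted p = 9.08e-05). Nox4, a hydrogen peroxide-producing NADPH oxidase, rose 1.97-fold, from 5.44 to 5.87 in littermates up to 6.44 to 6.71 in KO. Timeless, a protein of the replication fork, gave 10.40, 10.63 and 10.80 in KO and 9.57, 9.84 and 9.64 in littermates and rose 1.9-fold (adjusted p = 3.58e-05). It lies within 10 Mb of Avil. Crtac1, an extracellular matrix protein, rose 1.89-fold, and Sdc1, the heparan sulfate proteoglycan syndecan, 1.83-fold. Unc5d, a netrin receptor family member, rose 1.82-fold and Rnase4, a secreted ribonuclease, 1.78-fold. Slamf9, an immune receptor of the SLAM family, rose 1.7-fold.

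Several of the other large increases were in receptors. Npy1r, the Y1 receptor of neuropeptide Y, gave 8.25, 8.19 and 8.10 in KO and 7.32, 7.24 and 7.5 in littermates and rose 1.77-fold (adjusted p = 0.000491). Epha5, an ephrin receptor tyrosine kinase, rose 1.7-fold (adjusted p = 7.4e-06). Osmr, a subunit of the oncostatin M and interleukin-31 receptors, gave 11.01, 11.19 and 10.90 in KO and 10.49, 10.64 and 9.41 in littermates. Littermate replicate 3 was low, and Osmr rose 1.8-fold (adjusted p = 0.0325) but did not pass without KO replicate 1 (adjusted p = 0.0795) or KO replicate 2 (adjusted p = 0.118). Nt5dc1, a nucleotidase family gene, was the other gene that rose more than 2-fold and was singled out after its values were seen. Its arrays overlapped, with 6.31, 6.24 and 4.59 in KO and 4.69, 4.55 and 4.34 in littermates (2.27-fold, adjusted p = 0.0333), and it did not pass in 5 of 6 leave-one-out fits.

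Markers of neuron classes moved in different directions. The gene lists were chosen with earlier results of these data known, so their shares are a description and no test. The share of all autosomal genes counts 4487 with no array above the odorant receptor level. The C-LTMR, peptidergic and non-peptidergic lists held 0 such genes. Of 8 measured C-LTMR markers 4 fell and 0 rose (50%, beside 4.35% of all autosomal genes). All 8 had a negative log2 fold change (median -0.56). Their mean level was 8.52, 8.65 and 8.53 in KO and 9.37, 9.34 and 9.25 in littermates, with no overlap. Th, tyrosine hydroxylase, the rate-limiting enzyme of catecholamine synthesis, gave 7.78, 7.69 and 7.18 in KO and 9.80, 9.90 and 9.74 in littermates and fell 4.80-fold (adjusted p = 6.46e-09). P2ry1, a receptor for extracellular ADP, gave 5.83, 6.19 and 6.20 in KO and 7.42, 7.24 and 7.13 in littermates and fell 2.28-fold (adjusted p = 5.37e-06). Tafa4, a secreted peptide of these neurons, fell 1.92-fold and the zinc finger gene Zfp521 1.59-fold, each without overlap. Cdh9, Piezo2, Lypd1 and Bnc2 had log2 fold changes of -0.30, -0.17, -0.44 and -0.04 and did not pass. The count of 4 was the same in each of the 6 leave-one-out fits and on the 6 arrays alone.

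Of 11 peptidergic nociceptor markers 5 rose and 0 fell (45.5%, beside 4.35% of all autosomal genes), with a median log2 fold change of 0.31. Trpv1, the capsaicin- and heat-gated channel, gave 11.78, 11.75 and 11.67 in KO and 11.20, 11.17 and 10.98 in littermates and rose 1.53-fold (adjusted p = 3.87e-06). Tac1, the precursor of substance P, gave 13.50, 13.54 and 13.53 in KO and 13.17, 13.16 and 13.13 in littermates and rose 1.29-fold (adjusted p = 9.68e-06). The replicates of Tac1 lay close together, so this small change was larger than their spread. Gfra3, the artemin receptor, rose 1.26-fold, the peptide precursor Cartpt 1.35-fold and Adcyap1, the PACAP precursor, 1.24-fold. Calcb and Gal did not pass (log2 fold changes -0.13 and -0.02). Trpv1 and Tac1 passed in all 6 leave-one-out fits, whereas Gfra3, Cartpt and Adcyap1 did not pass in 5, 4 and 6 of them. Leaving out an array gave 2 to 3 genes that rose. Without KO replicate 2 the count was 3, as it was without KO replicate 1.

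Of 14 non-peptidergic nociceptor markers 6 fell and 1 rose (50%, beside 4.35% of all autosomal genes), with a median of -0.30. Prkcq, protein kinase C theta, gave 8.58, 8.19 and 8.25 in KO and 9.27, 9.27 and 9.16 in littermates and fell 1.86-fold (adjusted p = 2.69e-05). Cd55, a complement regulator, fell 1.40-fold. The semaphorin receptor Plxnc1, the lysophosphatidic acid receptor Lpar3, the neurturin receptor Gfra2 and its partner Ret fell 1.22-fold, 1.26-fold, 1.24-fold and 1.12-fold. The member that rose was Osmr, which marks itch neurons within this list. Mrgpra3, another itch receptor, had a log2 fold change of 0.30 (adjusted p = 0.0516), and P2rx3, an ATP-gated channel, 0.07. Other itch markers of the list had negative values and did not pass: Sst -1.19, Il31ra -0.46 and Nppb -0.40. These 3 were low on replicate 3 of both groups, for Nppb at 7.44 in KO and 7.88 in littermates against 9.76 to 10.27 on the other arrays. Prkcq, Cd55 and Plxnc1 passed in all 6 leave-one-out fits, and Gfra2, Lpar3 and Ret did not pass in 3, 5 and 4 of them. Without KO replicate 2, 3 of the 14 fell, and without KO replicate 1, 4. Of 14 markers of myelinated neurons 2 fell and 0 rose (14.3%). Ntrk2, the BDNF receptor, fell 1.19-fold and Necab2, a calcium-binding protein, 1.36-fold. Besides its brightest probe set, Ntrk2 fell on 1437560_at (log2 fold change -0.325), and its other probe sets did not pass. On 1420838_at and 1435196_at it had 0.03 and 0.04. Necab2 did not pass without KO replicate 2 (adjusted p = 0.102), littermate replicate 1 (0.0845) or littermate replicate 2 (0.0792).

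The promoters of members of these neuron classes that moved together are shown next, with matches to motifs of activity-dependent and lineage factors in capitals. They are RefSeq windows on GRCm38.p6 of 300 bases, 250 before the start of the gene and 50 from it, read 5′ to 3′ on the strand of the gene. Th (chr7:142899946-142900245, minus strand), P2ry1 (chr3:61002535-61002834, plus strand) and Tafa4 (chr6:97060362-97060661, minus strand) are C-LTMR markers that fell. Trpv1 (chr11:73233899-73234198, plus strand) and Tac1 (chr6:7554811-7555110, plus strand) are peptidergic markers that rose.
Th: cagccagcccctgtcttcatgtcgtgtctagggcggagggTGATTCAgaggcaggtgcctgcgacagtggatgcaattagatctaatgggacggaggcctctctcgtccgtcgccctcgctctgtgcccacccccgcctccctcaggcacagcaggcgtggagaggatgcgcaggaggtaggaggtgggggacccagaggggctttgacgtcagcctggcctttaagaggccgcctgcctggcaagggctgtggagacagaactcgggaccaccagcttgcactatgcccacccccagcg
P2ry1: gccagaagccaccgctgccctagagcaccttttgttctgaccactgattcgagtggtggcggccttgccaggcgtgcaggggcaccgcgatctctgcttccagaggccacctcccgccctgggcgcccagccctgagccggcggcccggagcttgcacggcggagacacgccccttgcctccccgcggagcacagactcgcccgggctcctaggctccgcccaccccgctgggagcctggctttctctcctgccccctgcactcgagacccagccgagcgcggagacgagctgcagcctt
Tafa4: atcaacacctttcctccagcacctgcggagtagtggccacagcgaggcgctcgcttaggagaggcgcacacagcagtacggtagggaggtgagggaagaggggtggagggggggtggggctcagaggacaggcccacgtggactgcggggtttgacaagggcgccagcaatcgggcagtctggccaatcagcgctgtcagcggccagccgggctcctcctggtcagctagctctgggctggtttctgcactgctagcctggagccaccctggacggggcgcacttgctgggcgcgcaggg
Trpv1: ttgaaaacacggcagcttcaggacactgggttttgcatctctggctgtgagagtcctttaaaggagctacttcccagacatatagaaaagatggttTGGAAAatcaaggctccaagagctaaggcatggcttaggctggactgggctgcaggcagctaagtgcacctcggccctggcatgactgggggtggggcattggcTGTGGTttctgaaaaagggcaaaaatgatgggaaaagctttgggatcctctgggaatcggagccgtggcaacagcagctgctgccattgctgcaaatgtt
Tac1: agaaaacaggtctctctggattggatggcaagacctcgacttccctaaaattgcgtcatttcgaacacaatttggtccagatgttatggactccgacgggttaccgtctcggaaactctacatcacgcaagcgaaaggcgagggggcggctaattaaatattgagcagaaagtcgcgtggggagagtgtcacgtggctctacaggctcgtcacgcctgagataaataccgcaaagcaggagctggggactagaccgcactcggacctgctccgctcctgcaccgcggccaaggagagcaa
The motifs searched on both strands were TGGAAA (NFAT core), TGANTCA (AP-1) and TGTGGT (RUNX core). The capitals in Th are an AP-1 match, and those in Trpv1 an NFAT core followed by a RUNX core. The other 3 windows held none of these letters. Of 13832 autosomal genes with a promoter in the table, 18% held the NFAT core, beside 16.5% of 260 genes that rose and 17.1% of 350 that fell. The AP-1 motif was in 6.25% of all, 5.38% of genes that rose and 4.29% of genes that fell, and the RUNX core in 13.7%, 9.23% and 11.1%. A match describes the letters and is not a bound site.

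Levels of general and non-neuronal markers moved beside these classes. Of 9 general sensory neuron markers, Avil fell and the other 8 did not pass, while 8 of the 9 had negative log2 fold changes (median -0.12). An unadjusted p under 0.05 was reached by 7 of the 9, among them Tubb3, the 1 with a positive value (0.14). The mean level of the 9 was 12.14 to 12.16 in KO and 12.32 to 12.36 in littermates. Among them Scn10a, the gene of Nav1.8, stood at 8.98 to 9.20 in KO and 9.40 to 9.52 in littermates (adjusted p = 0.148). All 16 macrophage markers had positive log2 fold changes (median 0.39), with a mean level of 7.53 to 7.93 in KO and 7.13 to 7.46 in littermates. Adgre1, the F4/80 antigen, passed (1.29-fold) as 1 of 16 (6.25%, beside 4.35% of all autosomal genes). Of the 16, 10 had an unadjusted p under 0.05. Adgre1 did not pass in 4 of 6 leave-one-out fits (adjusted p = 0.0657 without KO replicate 2 and up to 0.12 without littermate replicate 3). With the Xist class of each array as a term, 6 of the 16 passed, all higher. The blood list, which includes neutrophil granule genes, averaged 8.77 to 9.22 in KO and 8.28 to 8.39 in littermates, with 0 of 7 passing limma, 2 at an unadjusted p under 0.05 and 4 passing, all higher, on the 6 arrays alone. S100a8, S100a9, Ngp and Camp had log2 fold changes of 0.96 to 1.03, while the globin genes Hba-a1 and Hbb-b2 had -0.09 and 0.03.

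Of 10 satellite glia markers Fabp7, a brain fatty acid-binding protein, rose 1.28-fold (10% of the list, beside 4.35% of all autosomal genes). Fabp7 did not pass without KO replicate 1 (adjusted p = 0.0809), KO replicate 2 (0.0714) or littermate replicate 3 (0.0812). Of 9 Schwann cell markers, 12 of endothelium and pericytes and 12 of fibroblasts, limma called 0, and 0, 4 and 0 had an unadjusted p under 0.05. Without KO replicate 2, 2 endothelium and pericyte markers were higher. Blnk was the member of 12 lymphocyte markers that passed (8.33%). Among muscle (10), adipocyte (8) and central glia (9) markers limma called 0, with 0, 0 and 1 at an unadjusted p under 0.05, and 4 of the 9 central markers were at or under the odorant receptor level. In whole ganglia, fewer cells of a type and less RNA per cell cannot be told apart. The part of these marker levels in the other results was not tested.

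**Figure D2:**
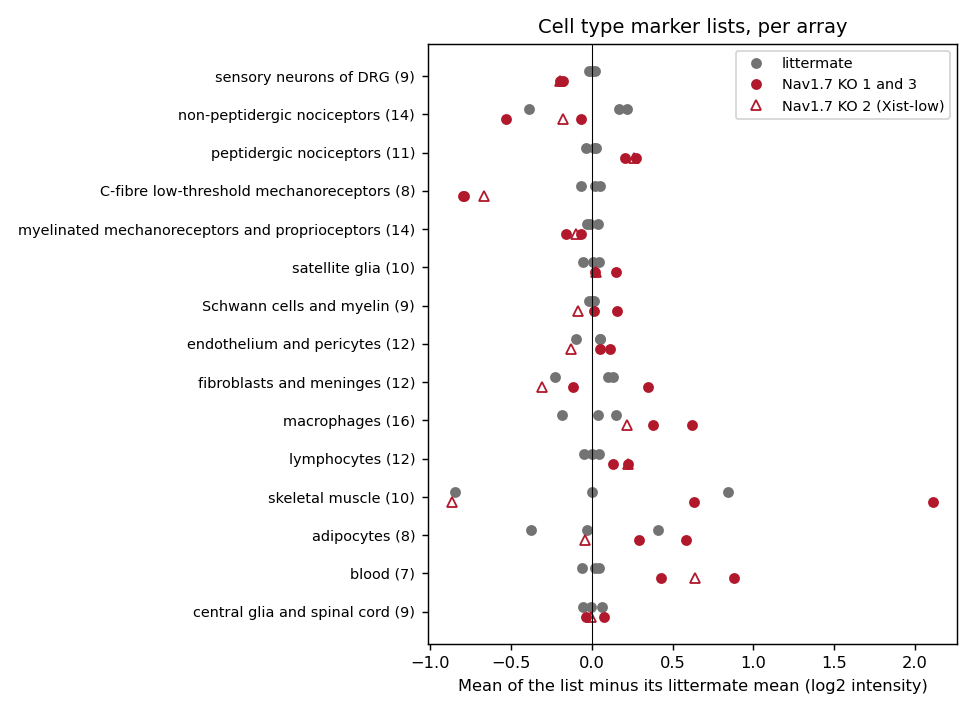
Mean level of each marker list on each array minus the littermate mean of that list (log2 intensity), with the number of genes in parentheses. C-LTMR markers lay lower and peptidergic, macrophage and blood markers higher on all 3 KO arrays, while muscle markers of KO replicate 1 stood far to the right.

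The list of sensory neuron transcription factors holds genes that set and maintain these classes and others, such as Bnc1, described above as epithelial. Of its 25 genes 5 fell and 1 rose (24%, beside 4.35% of all autosomal genes). Runx1, which specifies non-peptidergic nociceptors and C-LTMRs, gave 9.85, 9.69 and 9.53 in KO and 10.56, 10.50 and 10.43 in littermates and fell 1.74-fold (adjusted p = 0.00188). Isl2, a LIM homeodomain factor, fell 1.44-fold and Bhlha9, a basic helix-loop-helix factor, 1.52-fold. Bnc1 and Zfp521, described above, were the others, and Ldb2, a LIM domain-binding cofactor, rose 1.14-fold. In each of the 6 leave-one-out fits 5 fell. Pou4f1, which encodes Brn3a, stood at 9.91 to 9.92 in KO and 10.17 to 10.34 in littermates and did not pass (adjusted p = 0.0678).

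Homeobox cluster genes, which give position along the body axis, changed both ways. Of 33, 4 rose and 2 fell (18.2%, beside 4.35% of all autosomal genes). Hoxb5 gave 7.64, 7.89 and 7.74 in KO and 8.63, 8.69 and 8.54 in littermates and fell 1.82-fold (adjusted p = 1.62e-05), and Hoxb3 fell 1.27-fold. Those that rose are posterior members of their clusters: Hoxb9 (1.43-fold), Hoxc10 (1.38-fold), Hoxa10 (1.30-fold) and Hoxd9 (1.25-fold). Leaving out an array gave 0 to 4 that rose, with 1 without KO replicate 2 and 2 without KO replicate 1.

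Potassium channels, which set resting potential and repolarize the membrane, were among the lists with many members that passed. Of 79 genes of channel subunits 12 fell and 4 rose (20.3%, beside 4.35% of all autosomal genes). Kcnmb1, the beta subunit of the calcium-activated BK channel, gave 8.14, 8.28 and 8.22 in KO and 9.64, 9.20 and 9.31 in littermates and fell 2.25-fold (adjusted p = 5.25e-06). Kcnn1, a small-conductance calcium-activated channel, gave 7.36, 7.40 and 7.39 in KO and 8.54, 8.64 and 8.25 in littermates and fell 2.14-fold (adjusted p = 4.39e-06). Kcnma1, the BK pore, and Kcnn2, another small-conductance channel, fell 1.47-fold and 1.20-fold, so 4 of the decreases were in subunits of calcium-activated channels, while Kcnmb4, another BK beta subunit, rose 1.17-fold. Kcnd3 and Kcnd2, pores of the A-type current, fell 1.52-fold and 1.48-fold, and Kcnip2, a subunit that binds them, 1.24-fold. Kcnv1, a silent modifier subunit, rose 1.66-fold, from 8.39 to 8.55 in littermates to 9.12 to 9.27 in KO (adjusted p = 1.75e-05). Kcnk2, the TREK-1 leak channel, rose 1.29-fold and Kcnc4, a fast-inactivating pore that also carries A-type current, 1.39-fold. Leaving out an array gave 10 to 11 that fell and 3 to 4 that rose, and the 6 arrays alone gave 5 and 3.

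Of 23 calcium channel genes 4 fell and 0 rose (17.4%), led by Cacna2d3 (1.23-fold), an alpha2delta subunit, and Cacna1h (1.30-fold), the low-threshold T-type pore. Of 18 TRP channels Trpv1 rose and 3 fell, 22.2% in all. Each leave-one-out fit gave 2 that fell. The decreases were Trpc4 (1.69-fold), which gave 6.24 to 6.37 in KO and 7.0 to 7.10 in littermates, Trpc6 (1.55-fold) and Trpv2 (1.13-fold). Of 60 ligand-gated channels 3 fell and 1 rose (6.67%, beside 4.35% of all autosomal genes). Grik1, a kainate receptor subunit, gave 10.81, 10.64 and 10.87 in KO and 11.65, 11.67 and 11.57 in littermates and fell 1.81-fold (adjusted p = 8.35e-06). The nicotinic subunit Chrna4 fell 1.44-fold but had no array above the odorant receptor level, and Chrna6 rose 1.38-fold but did not pass without KO replicate 1 (adjusted p = 0.0697) or littermate replicate 3 (0.0599). Of 11 voltage-gated sodium channel genes limma called 0, 5 had an unadjusted p under 0.05, and the count of decreases over the leave-one-out fits was 0 to 1.

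Of 220 G protein-coupled receptors 14 fell and 5 rose (8.64%, beside 4.35% of all autosomal genes). Beside Htr4 and P2ry1, Htr5b, a serotonin receptor, fell 1.98-fold, Adgrd1, an adhesion receptor, 1.75-fold, Gpr160 1.48-fold and the histamine receptor Hrh1 1.39-fold. Those that rose were Npy1r, Adgre1, Gpr149 (1.25-fold), the sphingosine-phosphate receptor S1pr3 (1.23-fold) and the prostaglandin receptor Ptger4 (1.21-fold). Without KO replicate 2, 9 fell and 3 rose. Of 49 RGS proteins and G protein subunits 5 fell and 3 rose (16.3%). After Rgs8, Rgs10 gave 11.96, 11.97 and 12.09 in KO and 12.53, 12.52 and 12.51 in littermates and fell 1.42-fold (adjusted p = 1.97e-05), and Rgs4 fell 1.26-fold. Without KO replicate 1, 3 of the list fell and 1 rose, and without KO replicate 2, 3 fell and 2 rose.

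Second-messenger enzymes followed. Of 48 genes of cyclic nucleotide metabolism and its kinases 6 fell and 3 rose (18.8%, beside 4.35% of all autosomal genes). Decreases were in the phosphodiesterases Pde1b (1.52-fold), Pde10a (1.46-fold), Pde4d (1.32-fold) and Pde1c (1.18-fold) and the protein kinase A subunits Prkar2b (1.31-fold) and Prkacb (1.19-fold). The adenylate cyclases Adcy8 (1.39-fold) and Adcy7 (1.32-fold) and the phosphodiesterase Pde11a (1.43-fold) rose. Of 28 genes of protein kinase C, diacylglycerol kinases and phospholipases C 4 fell and 0 rose (14.3%): Prkcq, Plcd4 (1.42-fold), Prkca (1.15-fold) and Plcb4 (1.13-fold). Leaving out an array gave 2 to 3 that fell, with 2 without KO replicate 2, where Prkca did not pass (adjusted p = 0.131).

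**Figure D3:**
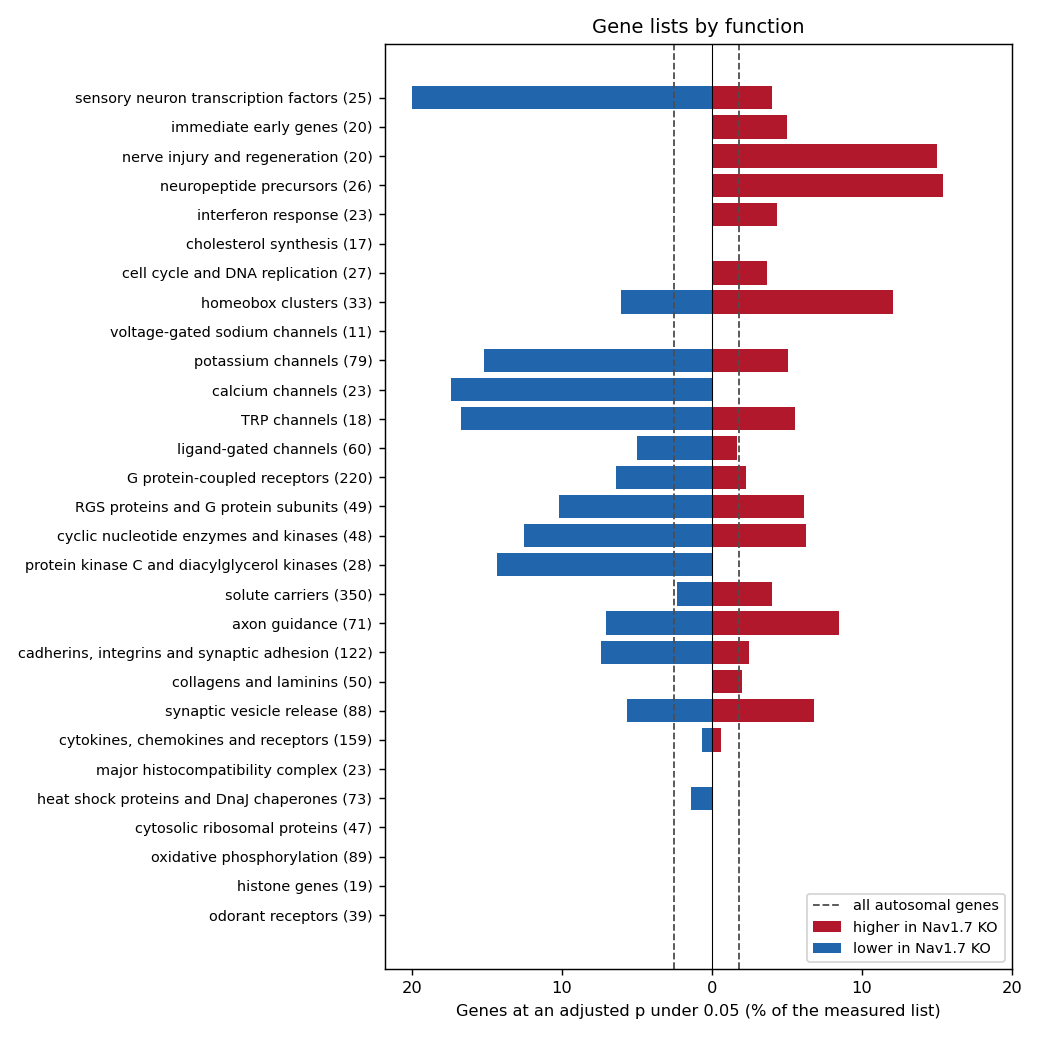
Share of each list by function that passed an adjusted p under 0.05 (% of measured genes, number in parentheses), to the left for genes lower and to the right for genes higher in Nav1.7 KO DRG. Dashed lines mark all autosomal genes, 2.53% lower and 1.82% higher; potassium channels reached 15.2% lower and 5.06% higher.

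Neuropeptide and injury genes rose where they passed. Of 26 genes listed as neuropeptide precursors 4 rose and 0 fell (15.4%, beside 4.35% of all autosomal genes), namely Tac1, Cartpt, Adcyap1 and Bdnf. Of the 26, 13 had positive log2 fold changes (median 0.01), and 11 had an unadjusted p under 0.05. Bdnf, a neurotrophin counted in this list, gave 10.03, 10.10 and 10.43 in KO and 9.62, 9.73 and 9.49 in littermates and rose 1.49-fold (adjusted p = 0.0224). Of 20 genes of nerve injury and regeneration 3 rose (15%): Jun, Bdnf and Flrt3, an axon guidance and adhesion protein (1.30-fold). Jun, a subunit of AP-1, gave 10.43, 10.49 and 10.77 in KO and 10.12, 10.13 and 10.21 in littermates and rose 1.33-fold (adjusted p = 0.00256). It was the member of 20 immediate early genes that passed (5%). Leaving out an array gave 1 to 3 neuropeptide genes that rose, 2 of them without KO replicate 1, and the 6 arrays alone gave 2. For the injury list these counts were 1 to 4, 4 and 1. Bdnf did not pass in 3 of these fits and Flrt3 in 4 (adjusted p = 0.105 without KO replicate 2). Sox11, a regeneration-associated factor, gave 7.94, 8.33 and 8.65 in KO and 7.71, 7.77 and 7.98 in littermates. These overlapped, and Sox11 did not pass (adjusted p = 0.252).

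Axon guidance genes changed both ways, with 6 of 71 higher and 5 lower (15.5%, beside 4.35% of all autosomal genes). Epha5 and Unc5d, described above, led the increases, and Sema3e, a repellent semaphorin, fell 1.42-fold. The ephrins Efna5 and Efnb2 fell 1.21-fold each, while the ephrin receptor Epha5 rose. Of 122 adhesion genes 9 fell and 3 rose (9.84%). Cdh10, a cadherin, gave 8.39, 8.25 and 8.04 in KO and 8.93, 8.91 and 8.68 in littermates and fell 1.53-fold (adjusted p = 0.000356), and the contactins Cntn4 and Cntn3 fell 1.51-fold and 1.36-fold. Cntnap4, a contactin-associated protein, rose 1.67-fold, with 9.11 to 9.34 in KO and 8.40 to 8.56 in littermates. Leaving out an array gave 4 to 6 adhesion genes that fell and 1 to 3 that rose, with 4 and 2 without KO replicate 2. Of 88 synaptic vesicle genes 6 rose and 5 fell (12.5%). Rims3, an active zone protein, rose 1.24-fold, and the synaptotagmins Syt6 and Syt7 fell 1.36-fold and 1.22-fold. Syt7 did not pass without KO replicate 2 (adjusted p = 0.0546), where 3 vesicle genes rose and 1 fell, and without KO replicate 1, 2 rose and 5 fell.

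Of 350 solute carriers 14 rose and 8 fell (6.29%, beside 4.35% of all autosomal genes). Without KO replicate 1, 7 rose and 8 fell, and the 6 arrays alone gave 2 and 4. The largest changes were decreases, of the sodium-calcium exchanger Slc8a1 (1.78-fold), which gave 6.21 to 6.34 in KO and 6.91 to 7.24 in littermates, and Slc16a12 (1.61-fold). Slc1a4, a neutral amino acid transporter, rose 1.22-fold and Slc2a3, the neuronal glucose transporter, 1.19-fold. In other lists few genes passed, near or under the share of all autosomal genes. Of 23 interferon response genes Sting1, the adaptor of cytosolic DNA sensing, rose (1.81-fold, 4.35% of the list), and of 27 cell cycle genes Timeless (3.7%). Of 159 cytokine and receptor genes Il4ra rose 1.26-fold and Ccl1 fell 1.44-fold. Of 50 collagens and laminins Lamb1 rose 1.30-fold, and of 73 chaperones Dnajc5b fell 1.86-fold. The KO values of Dnajc5b (5.36 to 5.48) lay under the odorant receptor level, so its fold is against values that may be background. Limma called 0 of 17 cholesterol synthesis, 23 histocompatibility, 47 ribosomal protein, 89 oxidative phosphorylation, 19 histone and 39 odorant receptor genes, and 3, 1, 9, 5, 0 and 4 of these had an unadjusted p under 0.05.

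Of the autosomal genes 8810 are measured by 1 probe set and 8704 by several, each a set of oligonucleotides against a stretch of the transcript. Tested separately, 309 of 33725 autosomal probe sets rose (0.916%) and 563 fell (1.67%). Of the 434 genes that passed and have several probe sets, 327 (75.3%) had all probe sets on the same side of 0 and 116 (26.7%) had at least 2 that passed. In no gene (0) did probe sets pass in both directions. In 143 genes the brightest probe set did not pass and another did. Probe sets without a gene name in the annotation also changed, 26 higher and 80 lower of 9160.

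The most probe sets passed in Pitpnc1, a phosphatidylinositol transfer protein, where 8 of 9 probe sets fell, all 9 with log2 fold changes between -0.56 and -0.29. All 4 probe sets of Rasgrp1 fell (-1.69 to -0.59), as did 4 of 4 of Paqr5, a progestin receptor gene (-0.78 to -0.43), and 3 of 3 of Vav3, a guanine nucleotide exchange factor (-0.93 to -0.52). Of 8 probe sets of Kalrn, another exchange factor, 4 fell, and of 5 of Osbpl6, an oxysterol-binding protein, 3. All 4 probe sets of Epha5 rose (0.32 to 0.88) and 4 of 5 of the noncoding RNA Snhg1. Both probe sets of Jun rose, by 0.41 and 0.96, and both of Sting1, by 0.86 and 1.51.

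Other genes differed between probe sets. Mbp, myelin basic protein, had a log2 fold change of 0.02 on its brightest probe set, at 13.95 in KO, and fell by 0.60 on 1425264_s_at (adjusted p = 5.78e-05 over probe sets), while its 6 others did not pass. Ptger1, a prostaglandin E2 receptor, rose by 1.39 on 1445445_s_at (adjusted p = 9.56e-05) and had 0.28 on its brightest probe set (adjusted p = 0.191). Of 6 probe sets of Runx1, 3 fell (-0.94 to -0.63), and the other 3 had log2 fold changes of -0.17 to -0.01. Timeless rose by 0.93 on its bright probe set and had -0.10 on the other, which lay at 5.17 in KO and 5.28 in littermates, under the odorant receptor level. Npy1r likewise had 0.83 on 1 probe set and 0.15 on a dim other. Smr2 rose by 0.79 on 1421782_a_at and did not pass on its 2 others. Rims3, Bdnf and Il4ra passed on their brightest probe set only. Elsewhere Rims3 had -0.07, Bdnf 0.29 and Il4ra -0.02 and 0.06. Msi2, an RNA-binding protein, had negative log2 fold changes on all 8 probe sets (-0.58 to -0.02), and 0 passed. Marcks, a protein kinase C substrate, rose on 3 of 7, Pyroxd2 rose on 1 of 3. In Ptpre, Mllt3, Bves and Lgi1 a dimmer probe set fell, and the brightest passed with the adjustment over genes (adjusted p = 0.0315 to 0.049) but not with that over probe sets (0.0636 to 0.0836). Atf7 (log2 fold change 0.16) and Lrat (-0.52, adjusted p = 0.102) did not pass at the gene level.

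**Figure D4:**
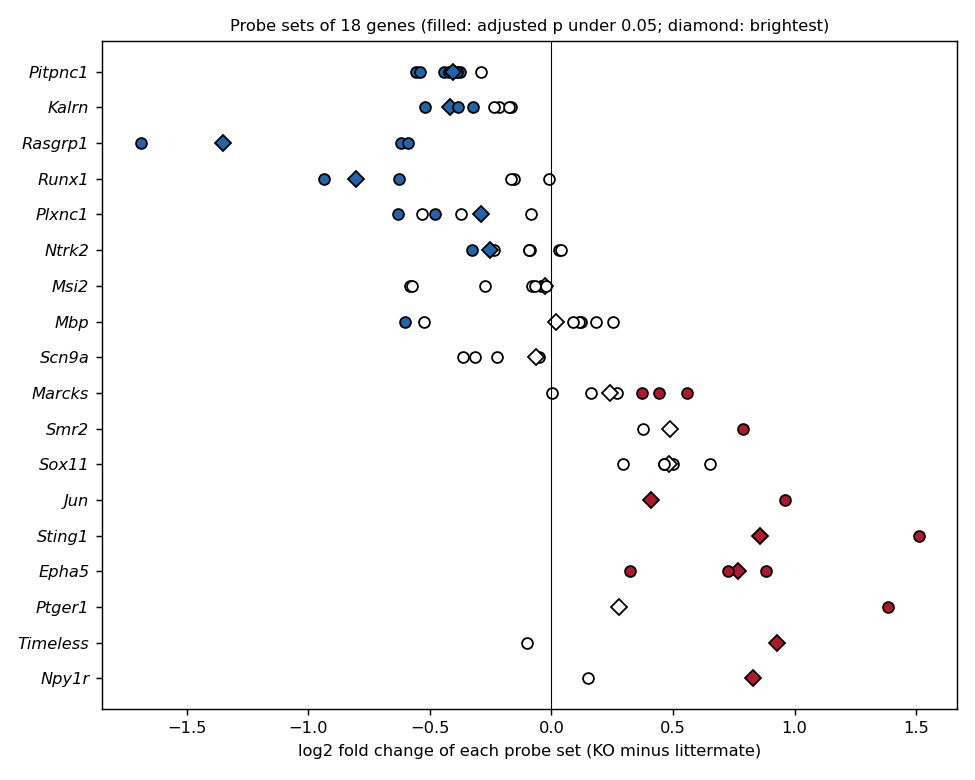
log2 fold change (KO minus littermate) of each probe set of 18 genes, filled where the adjusted p over probe sets was under 0.05, with a diamond for the brightest. All 4 probe sets of Rasgrp1 and of Epha5 were filled, and 1 of 2 in Ptger1 and 1 of 8 in Mbp.

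The same genes were then compared with the lines that lack Nav1.8 or Nav1.9, none of whose arrays are shared. The log2 fold change of Nav1.7 KO minus the mean of those of the other lines passed for 650 autosomal genes (3.71%), and 492 of the 761 genes that changed in the Nav1.7 line (64.7%) were among them. Both calls use the same Nav1.7 line arrays, so a large overlap goes with the choice of genes and is a description. For Th the log2 fold change was -2.26 in the Nav1.7 line, -0.17 in the Nav1.8 line and 0.20 in the Nav1.9 line, and the difference between lines was -2.27 (adjusted p = 1.21e-07). Runx1 differed by -1.07 (adjusted p = 0.00107), Kcnn1 by -1.18 (adjusted p = 3.15e-05) and Trpv1 by 0.69 (adjusted p = 1.62e-05). For Osmr (adjusted p = 0.0935) and Chrna4 (adjusted p = 0.371) the difference did not pass. Npy1r rose in the Nav1.7 line and fell in the Nav1.9 line (log2 fold change -0.63, adjusted p = 0.0233).

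**Figure D5:**
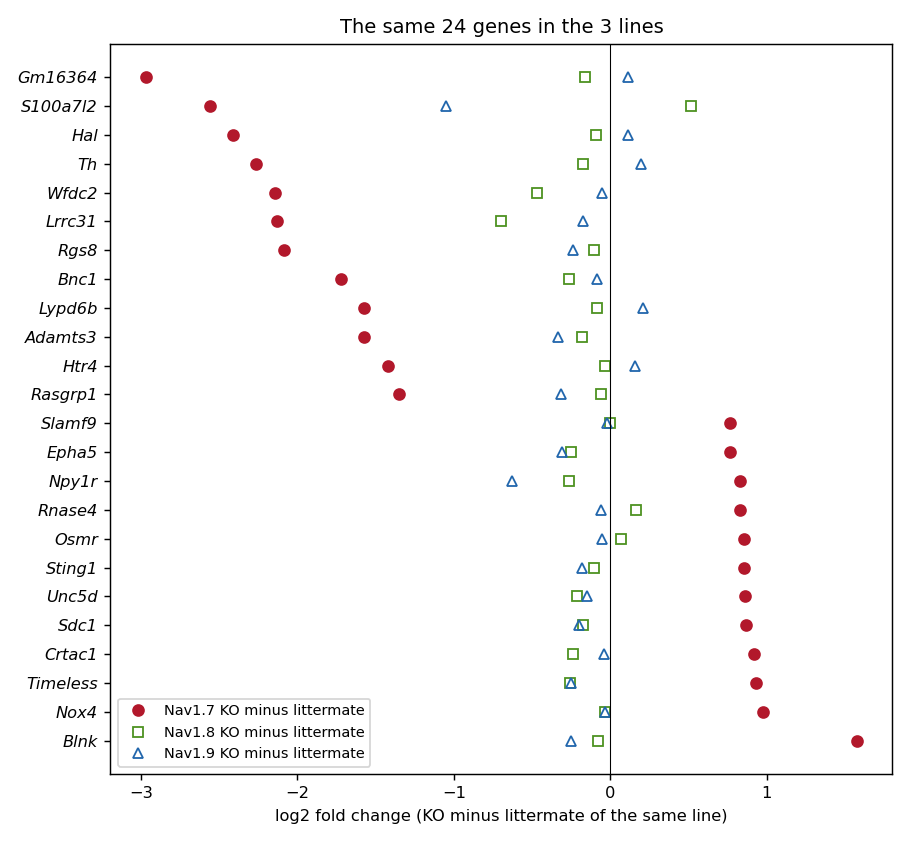
log2 fold change (KO minus littermate of the same line) of the 12 largest decreases and 12 largest increases in the Nav1.7 line (filled circles), beside Nav1.8 (squares) and Nav1.9 (triangles), as a description, since the Nav1.7 values chose the genes. Away from the Nav1.7 line the points lie mostly near 0, apart from S100a7l2 at -1.05 and Npy1r at -0.63 in Nav1.9 KO and Lrrc31 at -0.70, Wfdc2 at -0.47 and S100a7l2 at 0.51 in Nav1.8 KO.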

How the data were processed

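Whole-DRG RNA was hybridized to Affymetrix mouse genome arrays, 1 sample per array. The authors made the deposited log2 values, 1 per probe set and array, in Affymetrix Expression Console, and the summary method and normalization are not given in the sources used here. The log2 unit was read from the values, and array medians lay between 6.33 and 6.36. Groups came from the sample titles. The source name labels, under which every sample is a control, were disregarded.

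After removal of 64 control probe sets, 45037 were tested. The platform annotation gave 34945 of them 1 gene, 932 several and 9160 none. For each gene the brightest probe set (highest mean over the arrays) was used, among those that carry no other gene's name. No dim gene was filtered out. A model of 6 group means over all 18 arrays was fitted with limma 3.58.1 in R 4.3.3 (lmFit, then eBayes; degrees of freedom 12 residual and 3.44 prior), with Benjamini-Hochberg adjustment over 18193 genes or, separately, over all probe sets and a threshold of 0.05. The script was tested on simulated data. Alternatives were the 6 arrays alone, analysis of variance, other normalizations, filters, priors and weights, a replicate block and leaving out each array.

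Members and the 44 gene lists were chosen with earlier results of these data known, and no set test was run. Named genes were Scn9a, Avil, the 12 largest decreases and increases with arrays that did not overlap, up to 3 genes of smallest p per list, genes named by the study, genes with the most agreeing or with discordant probe sets, and genes that passed within 10 Mb of Scn9a or Avil. Further genes of the lists that passed are given to complete their counts and were chosen after their values were seen, as were members that did not pass. Pou4f2 was matched to no probe set and was not analysed here. The number of arrays limits the precision.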

Additional observations from a re-analysis of the deposited data

Results flagged for a closer look

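For 23 of the 24 genes with the largest changes, the Nav1.7 effect differed from the mean of the Nav1.8 and Nav1.9 effects by a test of the difference itself (limma, adjusted p under 0.05 over all genes). The genes were chosen for their change in the Nav1.7 line, so a difference of the same sign goes with the choice. Among decreases the difference in log2 fold change was -2.94 for Gm16364, -2.29 for S100a7l2, -2.42 for Hal, -2.27 for Th, -1.88 for Wfdc2 and -1.69 for Lrrc31, and -1.92 for Rgs8, -1.54 for Bnc1, -1.64 for Lypd6b, -1.32 for Adamts3, -1.48 for Htr4 and -1.16 for Rasgrp1. Among increases it was 1.74 for Blnk, 1.01 for Nox4, 1.18 for Timeless, 1.06 for Crtac1, 1.06 for Sdc1 and 1.04 for Unc5d, and 1.002 for Sting1, 0.78 for Rnase4, 1.27 for Npy1r, 1.05 for Epha5 and 0.78 for Slamf9. Adjusted p-values of these differences ran from 4.52e-11 for Gm16364 to 0.0114 for Slamf9. Osmr did not pass. The Nav1.7 line alone carries Cre under Avil, so the line and the driver cannot be told apart in these differences.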

How the results depend on the processing

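The spread was estimated over all 18 arrays, and counts depended on that: with the 6 arrays of the line alone, 88 genes rose in place of 318, 185 fell in place of 443, 58 probe sets rose in place of 309 and 187 fell in place of 563. Analysis of variance on the 6 arrays gave 9 genes that rose and 36 that fell, and an unadjusted p under 0.01 with a fold change over 1.5 gave 31 and 86. Leaving out each array in turn gave 181 to 361 genes that rose, 309 to 406 that fell, 180 to 379 probe sets that rose and 375 to 555 that fell. Genes that rose numbered 210 without KO replicate 1, 206 without littermate replicate 2 and 181 without littermate replicate 3. Probe sets that rose numbered 199 and 191 without KO replicates 1 and 2 and 198, 189 and 180 without littermate replicates 1, 2 and 3, and probe sets that fell numbered 375 without littermate replicate 1. Deviations of same-numbered arrays correlated at 0.0154, 0.252 and 0.266, and those of replicates 2 and 3 crossed at -0.254 and -0.249. Whether the numbers pair the samples is not given in the labels, and the main model held no pairing. Each KO array correlated best with the littermate array of its own number, but littermate replicate 1 did so with KO replicate 2 (0.0164). With a replicate block, 221 genes rose and 339 fell, and 194 probe sets rose and 410 fell. The counts of genes stayed within 1.5 times under quantile normalization, median centring, both filters on dim genes, the mean of all probe sets, array weights, the trended prior, removal of probe sets with possible cross-hybridization, and the Xist class as a term (268 and 370), which was added after the data were seen. No result reversed under these settings. Detection calls were not used here, which leaves the background of dim probe sets undetermined.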
